A study of Homo sapiens with 6 samples.

Results

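The genes described here are the transcription factors FOS, FOSB, FOSL2, JUN, JUNB, JUND and EGR1, the immediate early genes IER2 and DUSP1, and the proto-oncogene MYC, followed across WT, AM and 6WP 22Rv1 prostate cancer cells. They were taken by symbol from a table of read counts per gene, by a rule that uses no measured value, although the set was chosen with earlier results of these data known. All 10 were among its 29804 symbols and all 10 were among the 14672 genes that passed the filter on low counts. 22Rv1 is a human prostate carcinoma epithelial line, and every sample carried the same genotype label. WT cells were untreated parental cells at week 0. AM cells were age matched cells, grown in parallel with the treated cells for 6 weeks but never exposed to phleomycin. 6WP cells received 1 µg/ml of phleomycin, a radiomimetic glycopeptide that breaks DNA, for an hour on each week day of 6 weeks, and after each exposure the drug was washed away and the medium replaced. Each group had 2 libraries, which the labels call biological replicates. The study's methods say that cells went straight to harvest or to further assays, but give no time from the last exposure or medium change, so phleomycin and the handling that came with it cannot be told apart in 6WP cells. All 3 groups came from a single line, and the labels do not say whether the replicates were kept as separate cultures throughout, so the p-values measure the spread between these libraries.

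Immediate early genes are transcribed within minutes of a growth factor, serum or stress signal, without new protein synthesis. Their promoters are poised for the MAP kinase cascade, which acts through serum response factor with its ETS partners at CArG boxes and through CREB family proteins at cAMP response elements. The mRNAs are short lived, and several carry AU-rich elements in the 3′ UTR that speed their decay, so the level at harvest depends on what the cells met shortly before. FOS, FOSB and FOSL2 pair with JUN, JUNB or JUND to form the AP-1 transcription factor. EGR1 is a zinc finger factor, IER2 a nuclear protein of the early response, and DUSP1 a phosphatase that switches MAP kinases off again. MYC dimerises with MAX at E-boxes and drives ribosome production, metabolism and growth, and it responds to many of the same signals.

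The promoters of 6 genes are shown because they hold some of the response elements through which this class is switched on. They also set the members with the largest differences between libraries (FOS, FOSB, EGR1, DUSP1) beside JUN and beside FOSL2, which differed least. Each run holds 250 bases before and 50 bases after the annotated start, read 5′ to 3′ on the strand of the gene, from RefSeq on GRCh38.p14. Capitals mark CArG boxes, the short core TGACG of the cAMP response element or its reverse complement, the full element TGACGTCA, and the TATA box TATAAA.
FOS (chr14:75278578-75278877, + strand): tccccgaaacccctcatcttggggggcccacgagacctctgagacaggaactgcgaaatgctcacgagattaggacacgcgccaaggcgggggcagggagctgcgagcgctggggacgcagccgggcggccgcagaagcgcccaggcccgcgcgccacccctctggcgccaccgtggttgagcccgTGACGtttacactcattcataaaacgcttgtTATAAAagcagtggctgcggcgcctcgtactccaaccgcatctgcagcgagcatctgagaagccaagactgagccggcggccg
FOSB (chr19:45467746-45468045, + strand): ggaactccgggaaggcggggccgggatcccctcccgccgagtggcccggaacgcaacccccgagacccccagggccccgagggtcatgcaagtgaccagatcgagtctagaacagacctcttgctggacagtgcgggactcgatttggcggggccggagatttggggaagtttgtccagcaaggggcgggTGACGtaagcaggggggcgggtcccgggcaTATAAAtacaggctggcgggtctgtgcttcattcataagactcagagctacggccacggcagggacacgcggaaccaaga
EGR1 (chr5:138465229-138465528, + strand): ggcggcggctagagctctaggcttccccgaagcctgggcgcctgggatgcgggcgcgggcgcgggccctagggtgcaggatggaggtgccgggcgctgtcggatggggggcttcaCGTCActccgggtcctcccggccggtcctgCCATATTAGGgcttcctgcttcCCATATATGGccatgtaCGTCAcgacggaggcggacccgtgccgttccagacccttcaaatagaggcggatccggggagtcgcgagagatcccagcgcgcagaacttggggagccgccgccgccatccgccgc
DUSP1 (chr5:172771146-172771445, - strand): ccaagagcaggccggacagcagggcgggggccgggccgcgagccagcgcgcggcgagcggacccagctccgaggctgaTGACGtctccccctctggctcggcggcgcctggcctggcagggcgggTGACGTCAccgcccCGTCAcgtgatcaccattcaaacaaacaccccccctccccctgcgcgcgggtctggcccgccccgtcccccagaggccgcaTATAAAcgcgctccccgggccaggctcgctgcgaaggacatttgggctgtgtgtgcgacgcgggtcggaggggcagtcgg
JUN (chr1:58783998-58784297, - strand): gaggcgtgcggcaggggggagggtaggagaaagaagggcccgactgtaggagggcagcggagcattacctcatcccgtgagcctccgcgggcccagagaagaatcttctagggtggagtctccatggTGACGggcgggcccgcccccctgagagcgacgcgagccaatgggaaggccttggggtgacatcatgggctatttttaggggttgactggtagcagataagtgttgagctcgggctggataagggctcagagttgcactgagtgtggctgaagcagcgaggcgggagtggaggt
FOSL2 (chr2:28392608-28392907, + strand): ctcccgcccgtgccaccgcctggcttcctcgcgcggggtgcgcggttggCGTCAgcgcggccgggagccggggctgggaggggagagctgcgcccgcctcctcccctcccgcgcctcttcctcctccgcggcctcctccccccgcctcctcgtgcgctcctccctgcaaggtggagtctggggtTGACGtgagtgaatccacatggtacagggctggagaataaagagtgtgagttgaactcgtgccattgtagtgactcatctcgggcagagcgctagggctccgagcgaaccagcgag

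RefSeq promoter windows matched 9 of the 10 genes, and MYC was not among them. TGACG, searched on both strands, was found in 9 of the 9 windows, against 24.6% of the 35116 windows of the same length, and it also lies inside TGACGTCA. The full element TGACGTCA was found in JUND and DUSP1, against 1.85% of windows. Both CArG boxes found within these windows were in EGR1, 105 and 83 bases before the start, and 1.29% of windows held one. In FOS the TGACG began 64 bases before the start, upstream of TATAAA at 33 bases, and FOSB had nearly the same layout, with TGACG at 60 and TATAAA at 30 bases. TATAAA stood in FOS, FOSB, JUNB and DUSP1, against 11.5% of windows. The AP-1 site TGANTCA was found in FOSL2, against 7.71% of windows, and the E-box CACGTG in DUSP1, against 7.26%. CCAAT was in JUN, JUNB and JUND (34.6% of windows) and GGGCGG in 7 of the 9 (45% of windows), while the EGR site GCGGGGGCG was in none of the 9 windows (5.07% of all). Sequence outside the windows was not searched, so a missing match does not show that a gene lacks the element. These are matches of letters, and binding was not measured here.

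The AU-rich nonamer TTATTTATT is shown in capitals with 10 bases on each side, since rapid mRNA decay is part of immediate early control. It was found in the 3′ UTR of FOS, FOSL2 and DUSP1, against 8.44% of the 19550 3′ UTRs of canonical transcripts in GENCODE v44. DUSP1 held 2 copies, of which the first is shown.
FOS: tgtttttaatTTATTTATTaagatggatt
DUSP1: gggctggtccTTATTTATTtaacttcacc
FOSL2: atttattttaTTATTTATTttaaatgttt

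The shorter pentamer ATTTA was densest in the 3′ UTRs of FOS (5 copies, 6.2 per kb) and DUSP1 (4 copies, 6.01 per kb), against 2.25 per kb over all 3′ UTRs. JUNB held 4 per kb and MYC 3.01 per kb. IER2 held none and EGR1 0.818 per kb, although both belong to the same early class. FOSL2, at 1.85 per kb, lay just under the density of all UTRs. mRNA decay itself was not measured.

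The GENCODE v44 annotation of GRCh38 places FOS on chromosome 14 (75278826-75282230, + strand), FOSB on chromosome 19 (45467995-45475179, +) and FOSL2 on chromosome 2 (28392448-28417317, +). JUN lies on chromosome 1 (58776845-58784048, - strand), JUNB on chromosome 19 (12791486-12793315, +) and JUND on chromosome 19 (18279694-18281622, -), and each of these 3 genes is a single exon. EGR1 (138465479-138469303, +) and DUSP1 (172768096-172771195, -) lie on chromosome 5 and IER2 on chromosome 19 (13150411-13154911, +). Counts covered whole genes, exons and UTRs together. Exons of JUNB overlap those of HOOK2 on the opposite strand, exons of IER2 overlap lncRNA exons, and exons of MYC overlap those of the lncRNA CASC11. The libraries were stranded, but whether counting used the strand was not given in the sources used here, so reads of the overlapping genes may not be separable.

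Library totals ranged from 21222201 to 35311945 counts, and 3 counts corresponded to between 0.0850 and 0.141 CPM of the plain totals. CPM relates a count to the total of its library, and the CPM values of genes were TMM normalized. The lowest raw count of any of the 10 genes in any library was 170, for FOSB in AM replicate 1, so depth did not limit detection of any of them. Such counting limits cover counting error only. The epithelial label was borne out by 11 of 11 prostate epithelial markers above 1 CPM in every library, while PTPRC and CD3E were at 0 and the summed endothelial markers did not exceed 0.138 CPM. The summed fibroblast markers lay between 1.8 and 4.23 CPM and the summed leukocyte markers between 0.387 and 1.12 CPM.

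The replicates of a group differed widely in these genes. WT replicate 2 was higher than WT replicate 1 for 9 of the 10 genes, AM replicate 2 was higher than AM replicate 1 for all 10, and 6WP replicate 1 was higher than 6WP replicate 2 for 8. These 3 orders were read from the 10 genes themselves, so their own count only describes them. They held together in 8 of 10 genes and in 18 of 38 other immediate early genes (47.4%). Of the 9531 tested genes with a mean of at least 10 CPM they held in 1460 (15.3%). FOSL2 and MYC were the exceptions among the 10. FOSB was 3.72-fold higher in WT replicate 2 than in WT replicate 1, and only 1 of the 9531 genes differed more. For EGR1 the ratio was 2.53, with 2 genes differing more, and for FOS it was 1.98, with 4 differing more. The median absolute log2 difference between WT replicates was 0.80 for the 10 genes and 0.09 for the 9531. It was 0.44 and 0.10 between AM replicates, and 0.50 and 0.24 between 6WP replicates. The 6WP libraries also stood apart from each other over all genes, with a chi-square per degree of freedom of 67.2, compared to 5.83 in WT and 9.36 in AM. Whether time since medium change, density or another condition at harvest went with these differences was not tested.

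**Figure D1:**
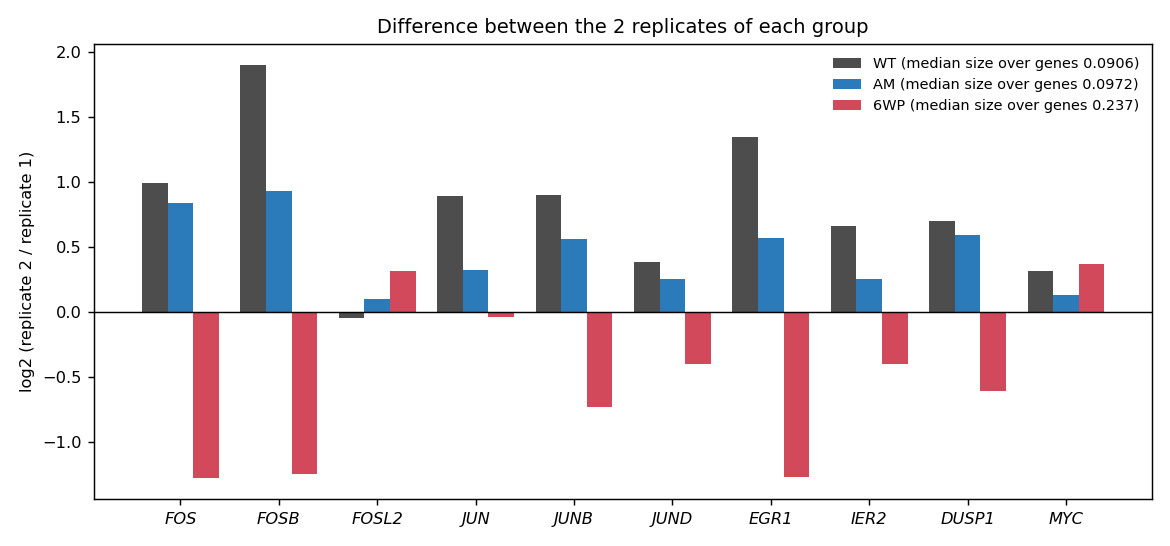
Bars give the log2 ratio of replicate 2 to replicate 1 for each of the 10 genes (x axis), in WT, AM and 6WP cells (colours), with the median absolute difference over 9531 genes in the legend. Bars point up in WT and AM for FOS, FOSB, EGR1, JUNB, DUSP1, IER2 and JUND and down in 6WP, while FOSL2 is near 0 in WT and MYC points up in all 3 groups.

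Compared per kb of the canonical transcript (CPM per kb), FOS had the highest mean of the 10 mRNAs in WT cells, 121. EGR1 followed with 106 and MYC with 105. These levels overlapped between genes, since FOS lay at 81.5 and 161, EGR1 at 60.1 and 152 and MYC at 94 and 116 CPM per kb in the WT libraries. The order depended on the transcript length, 2104 bases for FOS and 3721 for MYC, and other transcripts were not tried. In CPM not divided by length, MYC led in WT with a mean of 391, ahead of EGR1 with 333 and FOS with 256. In AM cells MYC led with 64.7 CPM per kb, ahead of IER2 with 38.4, EGR1 with 29.2 and FOS with 27.5. In 6WP cells MYC again led with 102, ahead of FOS with 68.6 and EGR1 with 64.4 CPM per kb. FOSL2 was the lowest and FOSB the next lowest in every group, and the FOSL2 level stayed between 1.74 and 2.16 CPM per kb in the 6 libraries. Among the AP-1 subunits, summed per kb, the FOS family made up 59% and 65.2% in the WT libraries, 36% and 43.5% in AM, and 51.5% and 36.8% in 6WP. The sum itself was 154 and 291 CPM per kb in WT, 65.6 and 94.4 in AM and 208 and 125 in 6WP. JUND made up 31.2% and 25.8% of that sum in AM, 18.3% and 12.5% in WT and 22.1% and 28% in 6WP. The JUND level itself was lower in AM, at 20.4 and 24.3 CPM per kb, than in WT, at 28.1 and 36.5. A bulk level of this kind cannot separate fewer expressing cells from less RNA per cell.

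AM cells at week 6 were first compared to WT cells at week 0, neither exposed to phleomycin. Each group belongs to its own week, so time in culture and conditions on the occasion of harvest cannot be told apart here. In AM cells 7 of the 10 genes fell compared to WT: FOS, FOSB, JUN, EGR1, IER2, DUSP1 and MYC. None rose. Over all tested genes 9.93% were called lower and 7.74% higher (edgeR quasi-likelihood test with Benjamini-Hochberg adjustment, adjusted p threshold 0.05). Both AM libraries lay below both WT libraries for 9 of the 10 genes, which held for 36.9% of all tested genes. The median log2 fold change was -0.94 for the 10 genes and -0.002 for all genes.

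FOS, the prototype AP-1 subunit, stood at 172 and 340 CPM in WT replicates 1 and 2 and at 41.5 and 74.2 CPM in AM replicates 1 and 2. Even the higher AM library was below the lower WT library. The log2 fold change was -2.14 (SE 0.48, edgeR adjusted p = 0.0226), from 256 ± 119 to 57.8 ± 23.1 CPM (mean ± SD, n = 2). Its close relative FOSB lay at 26.9 and 100 CPM in WT and at 7.32 and 13.9 CPM in AM. It fell with a log2 fold change of -2.56 (SE 0.64, edgeR adjusted p = 0.0317), which dropped to -1.34 without WT replicate 2. FOSL2, which encodes FRA2 and is usually induced later and more weakly, had 13.6 and 13.1 CPM in WT and 13.1 and 14.1 CPM in AM. Its groups overlapped, with a log2 fold change of 0.03 (SE 0.16, edgeR adjusted p = 0.917).

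JUN, the partner of FOS in the classic AP-1 dimer, measured 65.7 and 122 CPM in WT and 38.8 and 48.4 CPM in AM. It fell with a log2 fold change of -1.10 (SE 0.26, edgeR adjusted p = 0.0264). JUNB, often a weaker activator than JUN, had 26.9 and 50.2 CPM in WT and 17.6 and 26 CPM in AM. The groups did not overlap, but the nearest libraries, 26.9 and 26 CPM, were close, and the log2 fold change of -0.82 (SE 0.34) did not pass the test (edgeR adjusted p = 0.129). JUND, the most constantly expressed of the JUN genes in many cells, lay at 54.2 and 70.5 CPM in WT and at 39.4 and 47 CPM in AM. Its log2 fold change of -0.53 (SE 0.18) did not pass either (edgeR adjusted p = 0.0815). With only the AM and WT libraries fitted, JUNB and JUND both passed (edgeR adjusted p = 0.00368 and 0.00125). That fit called 6620 genes in all, compared to 2593 in the main fit.

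EGR1 had 188 and 477 CPM in WT and 73.6 and 109 CPM in AM. It fell with a log2 fold change of -1.86 (SE 0.50, edgeR adjusted p = 0.0394), although DESeq2 gave an adjusted p of 0.0557. IER2 fell less, from 108 and 171 CPM to 74 and 87.9 CPM (log2 fold change -0.78, SE 0.22, edgeR adjusted p = 0.0477). The MAP kinase phosphatase DUSP1 fell about as much as JUN, from 41.5 and 67.5 CPM to 20.7 and 31.1 CPM (log2 fold change -1.07, SE 0.30, edgeR adjusted p = 0.0425). MYC had the tightest replicates of the genes that fell, with 350 and 433 CPM in WT and 230 and 252 CPM in AM. Its log2 fold change was -0.70 (SE 0.16, edgeR adjusted p = 0.0233).

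These calls changed when a library was left out. All 3 groups shared 1 estimate of the spread, so leaving out a library of any group changed that estimate too. Without WT replicate 1 only JUN was still called, and without WT replicate 2, AM replicate 1 or AM replicate 2 none of the 10 was; in these 4 fits 0.273% to 0.654% of all genes were called lower. All 7 kept a negative log2 fold change in each of these fits, with FOSB between -3.22 and -1.34, FOS between -2.64 and -1.58, EGR1 between -2.38 and -1.06, JUN between -1.48 and -0.60, DUSP1 between -1.41 and -0.69, IER2 between -1.08 and -0.43 and MYC between -0.85 and -0.55. Without 6WP replicate 1 or 6WP replicate 2, 9 of the 10 were called lower, FOSL2 being the exception, as were 21.9% and 20.9% of all genes. The luminal markers moved in the same comparison: 5 of 11 prostate epithelial markers were lower in AM than in WT, among them TMPRSS2, and KLK2 was higher, while their sum was 3510 to 3710 CPM in WT and 2420 to 2740 CPM in AM. Their part in the result was not tested.

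**Figure D2:**
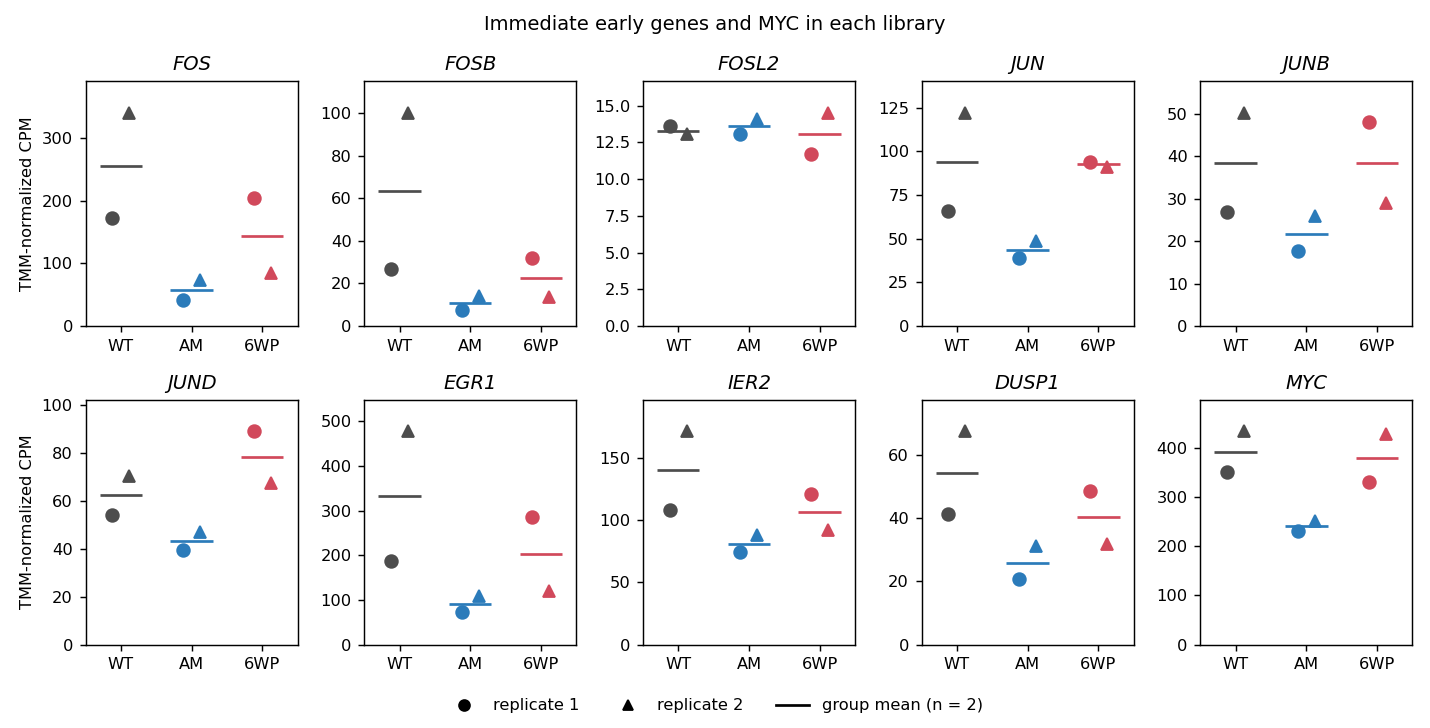
Each panel gives 1 gene on its own linear axis from 0, in TMM-normalized CPM, with replicate 1 and replicate 2 of WT, AM and 6WP as separate symbols and the group mean (n = 2) as a line. AM libraries lie below both WT libraries for every gene but FOSL2, and the 6WP and WT libraries overlap for all 10.

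Phleomycin-treated cells were next compared to AM cells of the same age in culture. JUN, JUND and MYC rose in 6WP cells, and none of the 10 genes fell. Over all tested genes 11.7% were called higher and 9.68% lower. Both 6WP libraries exceeded both AM libraries for 8 of the 10 genes, compared to 33.8% of all tested genes. The median log2 fold change was 0.83 for the 10 genes and 0.048 for all genes. This comparison shares the AM libraries with the one before, so a low AM level enters both.

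JUN was the steadiest member in 6WP cells, with 93.9 and 91.3 CPM against 38.8 and 48.4 CPM in AM. The log2 fold change was 1.08 (SE 0.26, edgeR adjusted p = 0.0236), from a mean of 43.6 ± 6.79 to 92.6 ± 1.86 CPM (SD, n = 2). JUND had 88.9 and 67.3 CPM in 6WP and 39.4 and 47 CPM in AM. It had the lowest adjusted p of the 10, with a log2 fold change of 0.85 (SE 0.18, edgeR adjusted p = 0.0175). JUNB, with 48.1 and 28.9 CPM in 6WP, was above both AM libraries (17.6 and 26 CPM), but its log2 fold change of 0.82 (SE 0.34) did not pass (edgeR adjusted p = 0.121). MYC had 330 and 427 CPM in 6WP and 230 and 252 CPM in AM. It rose with a log2 fold change of 0.65 (SE 0.16, edgeR adjusted p = 0.0246), and the adjusted p was 0.0555 when only the 6WP and AM libraries were fitted.

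The genes with the widest spread between 6WP libraries had large but uncertain differences. FOS lay at 204 and 84.3 CPM in 6WP replicates 1 and 2, against 41.5 and 74.2 CPM in AM. Replicate 2 was thus close to the upper AM library, and the log2 fold change of 1.32 (SE 0.47) did not pass (edgeR adjusted p = 0.0795). EGR1 had 285 and 119 CPM in 6WP against 73.6 and 109 CPM in AM, with a log2 fold change of 1.14 (SE 0.49, edgeR adjusted p = 0.132). FOSB, with 31.9 and 13.4 CPM in 6WP against 7.32 and 13.9 CPM in AM, had overlapping groups and a log2 fold change of 1.08 (SE 0.63, edgeR adjusted p = 0.247). Replicate 2 of 6WP was close to AM replicate 2 in all 3 of these genes. DUSP1 had 48.6 and 31.9 CPM and IER2 121 and 91.6 CPM in 6WP, with log2 fold changes of 0.63 (SE 0.29, edgeR adjusted p = 0.158) and 0.39 (SE 0.22, edgeR adjusted p = 0.241). FOSL2, at 11.7 and 14.5 CPM, overlapped AM with a log2 fold change of -0.05 (SE 0.16, edgeR adjusted p = 0.827).

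The calls again changed with the library left out, and the shared estimate of the spread changed with it. Without 6WP replicate 2, 9 of the 10 genes were called higher than in AM, as were 16.4% of all genes. Without 6WP replicate 1 the number was 3, beside 23.8% of all genes. Without AM replicate 1 or 2 it was 0, beside 0.375% and 0.368% of all genes, and without WT replicate 1 or 2 it was 2, MYC being lost, beside 4.88% and 4.81%. The log2 fold change of FOS ran from 0.53 without 6WP replicate 1 to 1.81 without AM replicate 2, while that of JUN stayed between 0.94 and 1.26 over all libraries left out. In this comparison 3 of 11 prostate epithelial markers were called higher and 1 lower.

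**Figure D3:**
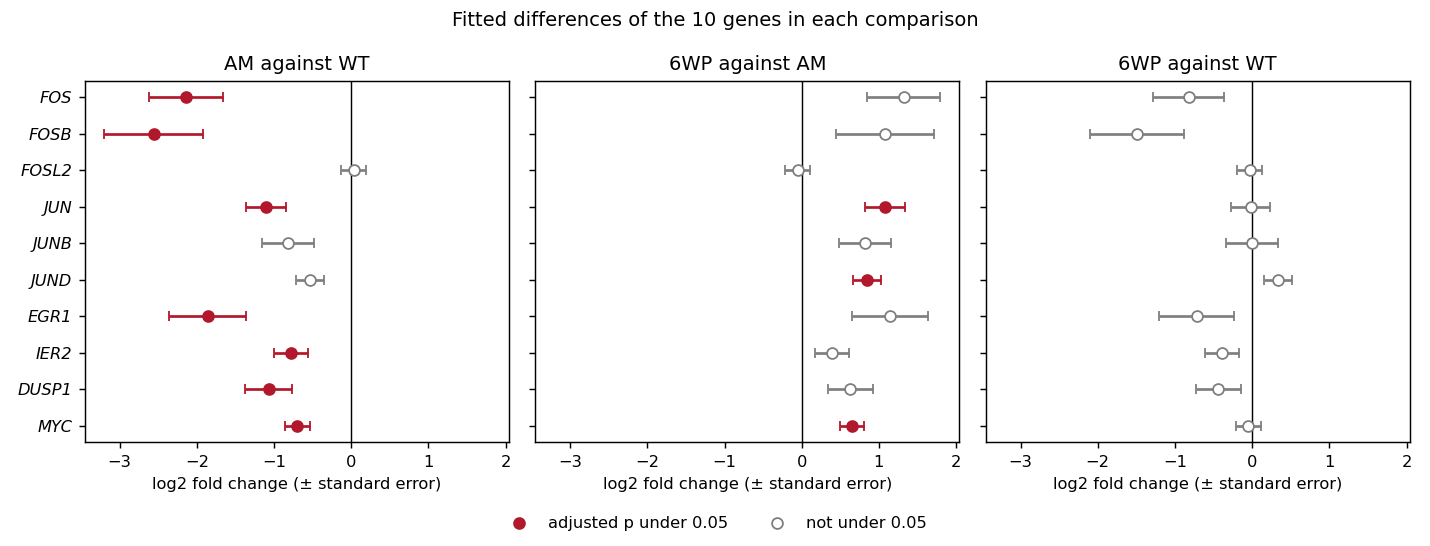
Points give the fitted log2 fold change of each gene in the 3 comparisons, with bars of 1 standard error; filled red points had an adjusted p under 0.05. In AM against WT 7 points are filled, all to the left of 0; in 6WP against AM 3 are filled, to the right; in 6WP against WT none is.

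Against the parental WT cells, the study's main comparison, 6WP cells gave no call among the 10 genes in edgeR's quasi-likelihood test, where 1.63% of all genes were called higher and 1.37% lower. DESeq2 also called 0, and 1 of the 10, FOSB, had an unadjusted p under 0.05, as did 22.4% of all tested genes. The groups overlapped for all 10, while they did not for 50.7% of all tested genes. FOSB, at 31.9 and 13.4 CPM in 6WP against 26.9 and 100 CPM in WT, had a log2 fold change of -1.49 (SE 0.61, edgeR adjusted p = 0.203). FOS had a log2 fold change of -0.82 (SE 0.46, edgeR adjusted p = 0.332) and EGR1 one of -0.72 (SE 0.49, edgeR adjusted p = 0.421).

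FOSL2, JUN, JUNB and MYC lay closest to their WT level. FOSL2 had a log2 fold change of -0.03 (SE 0.16). JUN averaged 93.8 ± 39.7 CPM in WT and 92.6 ± 1.86 CPM in 6WP (log2 fold change -0.02, SE 0.25). JUNB averaged 38.5 ± 16.4 and 38.5 ± 13.5 CPM, a fold of 0.999, and MYC 391 ± 58.6 and 379 ± 68 CPM (log2 fold change -0.05, SE 0.16). JUND was the only member with a positive log2 fold change, 0.33 (SE 0.18, edgeR adjusted p = 0.334), with 88.9 and 67.3 CPM in 6WP and 54.2 and 70.5 CPM in WT. DUSP1 and IER2 had log2 fold changes of -0.44 (SE 0.29) and -0.39 (SE 0.22). Without 6WP replicate 1 the test called 5 of the 10, FOS, FOSB, EGR1, IER2 and DUSP1, all lower than in WT, beside 13.6% of all genes. Without 6WP replicate 2 it called JUND, higher than in WT, beside 13.5% of all genes. Without WT replicate 2 the log2 fold change of EGR1 turned to 0.09.

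Other genes of the same pathways were read from lists compiled by function. Over all tested genes 7.74% were called higher and 9.93% lower in AM against WT, with a median log2 fold change of -0.002. The shares in 6WP against AM were 11.7% higher and 9.68% lower, with a median of 0.048. Those in 6WP against WT were 1.63% and 1.37%, with a median of 0.013. Among 38 tested other immediate early genes, 8 were lower and 1 higher in AM than in WT (median log2 fold change -0.25), 8 were higher and 0 lower in 6WP than in AM (median 0.31), and 1 was lower in 6WP than in WT. EGR3, a relative of EGR1, had 5.36 and 21.2 CPM in WT, 0.861 and 2.27 in AM and 7.88 and 7.93 in 6WP. It fell in AM against WT (log2 fold change -3.02, SE 0.64, edgeR adjusted p = 0.0196) and rose in 6WP against AM (2.28, SE 0.64, edgeR adjusted p = 0.0403). CTGF, a matricellular growth factor also known as a YAP target, had 11.7 and 18.2 CPM in WT, 1.51 and 1.24 in AM and 3.76 and 3.77 in 6WP. It was the 1 gene of the list that was also lower in 6WP than in WT (log2 fold change -1.99, SE 0.25, edgeR adjusted p = 0.00899), where DESeq2 called 7 genes of the list, the fit with no filter 6, and the fits without WT replicate 1 or 2 called 0. EGR4 was called higher in 6WP than in AM, but on 2 and 1 counts in AM and 16 and 16 in 6WP.

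Not every relative followed FOS and EGR1. ATF3, a stress-induced bZIP factor, had 41.7 and 63.9 CPM in WT, 51 and 53.7 in AM and 122 and 79.6 in 6WP. It did not fall in AM (log2 fold change -0.01, SE 0.24) and rose in 6WP against AM (0.94, SE 0.24, edgeR adjusted p = 0.0291). The orphan nuclear receptor NR4A1 had 29.5 and 61.7 CPM in WT, 18.5 and 22.6 in AM and 26 and 20.3 in 6WP. It fell in AM against WT (log2 fold change -1.15, SE 0.31, edgeR adjusted p = 0.0411), and its 6WP and AM libraries overlapped. NFKBIA, the inhibitor of NF-kappaB, was the 1 gene of the list that rose in AM (0.66, SE 0.13, edgeR adjusted p = 0.0158). EGR2 lay between 0.258 and 2.3 CPM and passed in no comparison. FOSL1, the remaining FOS gene, had 1 to 7 counts per library and was not tested.

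Of the 4 tested bZIP partners of AP-1, none was called in AM against WT, and 1, JDP2, rose in 6WP. JDP2, a repressor that dimerises with JUN proteins, had 11.8 and 12.4 CPM in WT, 9.73 and 11.2 in AM and 28.7 and 34 in 6WP. Its log2 fold change was 1.58 against AM (SE 0.15, edgeR adjusted p = 0.00203) and 1.38 against WT (SE 0.15, edgeR adjusted p = 0.00654).

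MAP kinase feedback inhibitors, which like DUSP1 are induced by the pathway they dampen, numbered 16 tested genes. In AM against WT 5 fell and 0 rose (median log2 fold change -0.25), where 9.93% of all genes fell. In 6WP against AM 7 rose and 0 fell (median 0.36), where 11.7% of all genes rose. In 6WP against WT 0 were called, or 1 by DESeq2, with no filter or with the replicate block. DUSP6, the cytoplasmic ERK phosphatase, had 20.5 and 26.8 CPM in WT, 10.1 and 10.8 in AM and 26.6 and 32.1 in 6WP. Its log2 fold change was -1.17 in AM against WT (SE 0.18, edgeR adjusted p = 0.00736) and 1.49 in 6WP against AM (SE 0.18, edgeR adjusted p = 0.00316). Both 6WP libraries lay above both AM libraries. DUSP4, a nuclear MAP kinase phosphatase, had 12.9 and 15 CPM in WT, 7.1 and 5.98 in AM and 15.6 and 14 in 6WP. It fell in AM against WT (-1.10, SE 0.17, edgeR adjusted p = 0.00791) and rose in 6WP against AM (1.18, SE 0.17, edgeR adjusted p = 0.00549). SPRED3, a Sprouty-related inhibitor, fell in AM against WT (-1.26, SE 0.36, edgeR adjusted p = 0.0452).

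The 29 genes of the MAP kinase cascade and of the factors at these promoters moved in both directions. In AM against WT 4 were higher and 3 lower, beside 7.74% and 9.93% of all genes. In 6WP against AM 2 were higher and 2 lower, beside 11.7% and 9.68% of all genes. ELK3, an ETS partner of serum response factor, had 7.41 and 8.18 CPM in WT, 1.68 and 1.12 in AM and 5.32 and 3.88 in 6WP (log2 fold change -2.50 in AM against WT, SE 0.28, edgeR adjusted p = 0.00321). It rose in 6WP against AM (1.74, SE 0.28, edgeR adjusted p = 0.00729), as did the p38 kinase activator MAP2K6 (0.78, SE 0.22, edgeR adjusted p = 0.0422), which had fallen in AM (-0.88, SE 0.22, edgeR adjusted p = 0.0335). The kinase RPS6KA1 moved the other way, with a rise in AM (0.98, SE 0.13, edgeR adjusted p = 0.00511) and a fall in 6WP against AM (-0.79, SE 0.13, edgeR adjusted p = 0.00761). HRAS rose in AM (0.74, SE 0.15, edgeR adjusted p = 0.0155), and MAP2K1, the ERK kinase MEK1, fell in 6WP against AM (-0.47, SE 0.11, edgeR adjusted p = 0.0198). MAP2K1 had 59.3 and 56.1 CPM in WT, 76.7 and 77.4 in AM and 57.2 and 54.1 in 6WP. In 6WP against WT the main fit called no gene of this list, and DESeq2 called 1.

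Around MYC, its obligate partner MAX stayed between 51 and 61.8 CPM in the 6 libraries and was called in no comparison. Of the 15 tested genes of the MYC and MAX network, 3 fell in AM against WT and 4 rose in 6WP against AM. Over all tested genes 9.93% fell and 11.7% rose in these comparisons, respectively. In 6WP against WT the main fit called 0 of the network, DESeq2 2 and the fit with no filter 1. MYCL, a MYC paralog, had 8.17 and 9.33 CPM in WT, 6.46 and 8.16 in AM and 24.5 and 12.1 in 6WP, and rose against AM (log2 fold change 1.32, SE 0.31, edgeR adjusted p = 0.0238). MLXIPL, the carbohydrate response factor ChREBP, fell in AM (-1.34, SE 0.32, edgeR adjusted p = 0.0273) and rose in 6WP against AM (1.45, SE 0.31, edgeR adjusted p = 0.0175). MXD4, a MAX-binding repressor, fell in AM (-0.73, SE 0.16, edgeR adjusted p = 0.0199).

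The MYC target genes that passed the test did not follow the MYC mRNA. Of 41 tested, 6 rose and 0 fell in AM against WT (median log2 fold change 0.21), where MYC fell and 7.74% of all genes rose. In 6WP against AM 8 fell and 0 rose (median -0.19), where MYC rose and 9.68% of all genes fell. TFRC, the transferrin receptor, had 839 and 748 CPM in WT, 1670 and 1290 in AM and 615 and 431 in 6WP. Its log2 fold change was 0.90 in AM against WT (SE 0.19, edgeR adjusted p = 0.0201) and -1.50 in 6WP against AM (SE 0.20, edgeR adjusted p = 0.00402). The spermidine synthase gene SRM rose in AM against WT (0.82, SE 0.16, edgeR adjusted p = 0.0136), and the lactate dehydrogenase gene LDHA fell in 6WP against AM (-1.05, SE 0.12, edgeR adjusted p = 0.00272). In 6WP against WT 1 of the 41, the ribosome assembly factor WDR74, was called higher (0.57, SE 0.11, edgeR adjusted p = 0.0431), but not with the replicate block (edgeR adjusted p = 0.0602), library size only, the 2 groups alone, or any WT or AM library left out. In the same comparison DESeq2 called 4 MYC target genes and the fit with no filter 3, beside 1124 and 894 of all genes. TFRC and LDHA are also known targets of iron and hypoxia signalling. MYC protein was not measured.

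Of 27 AP-1 target genes, 15 were expressed well enough to be tested. In AM against WT 1 rose and 2 fell, beside 7.74% and 9.93% of all genes. In 6WP against AM 4 rose, beside 11.7% of all genes, and in 6WP against WT 2 rose, beside 1.63%. In the latter comparison DESeq2 and the fit with no filter each called 4. VIM, the mesenchymal intermediate filament, was called in all 3 comparisons of the main fit. It had 56.8 and 57.3 CPM in WT, 20.3 and 22 in AM and 88.5 and 88 in 6WP. Its log2 fold change was -1.43 in AM against WT, 2.06 in 6WP against AM and 0.63 in 6WP against WT (SE 0.11 each, edgeR adjusted p = 0.00157, 0.000199 and 0.027). VEGFA, the angiogenic growth factor, rose in 6WP against WT (1.16, SE 0.13, edgeR adjusted p = 0.00691), with 120 and 102 CPM compared to 48.5 and 51.4. TGFB1 went against the list in AM, where it rose (1.52, SE 0.22, edgeR adjusted p = 0.00692), while the integrin gene ITGA2 fell (-1.35, SE 0.28, edgeR adjusted p = 0.0188).

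Most of these list counts also moved when a library was left out. In AM against WT, with a WT or an AM library left out, 1 to 3 of the other immediate early genes and 0 of the feedback inhibitors were called, and in 6WP against AM 0 to 5 and 0 to 4. With a 6WP library left out, the counts in 6WP against AM rose to between 16 and 20 and between 8 and 9. MYC target genes called in AM against WT numbered 0 without any WT or AM library and 20 to 23 without a 6WP library. In 6WP against AM, MYC target genes called numbered 1 to 6 without a WT or AM library and 16 to 17 without a 6WP library. In each comparison, the number called among all genes also fell without a WT or AM library and rose without a 6WP library. A moved count was therefore not particular to its list. In 6WP against WT, more genes of these lists and more AP-1 target genes were called without a 6WP library. The calls of CTGF, JDP2, VEGFA and VIM in that comparison were lost without WT replicate 1 or 2, and that of VIM also without AM replicate 1 or 2 and with the 2 groups alone, while their log2 fold changes kept their sign. The call of JDP2 in 6WP against AM was kept in each of these fits. Exons of CTGF, DUSP6, EGR3, ELK3, HRAS, JDP2, MAP2K1, MAX, MYCL, NR4A1, TFRC, TGFB1, VEGFA, VIM and WDR74 overlap those of another annotated gene on the opposite strand, and exons of EGR2, MXD4 and WDR74 those of one on the same strand.

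**Figure D4:**
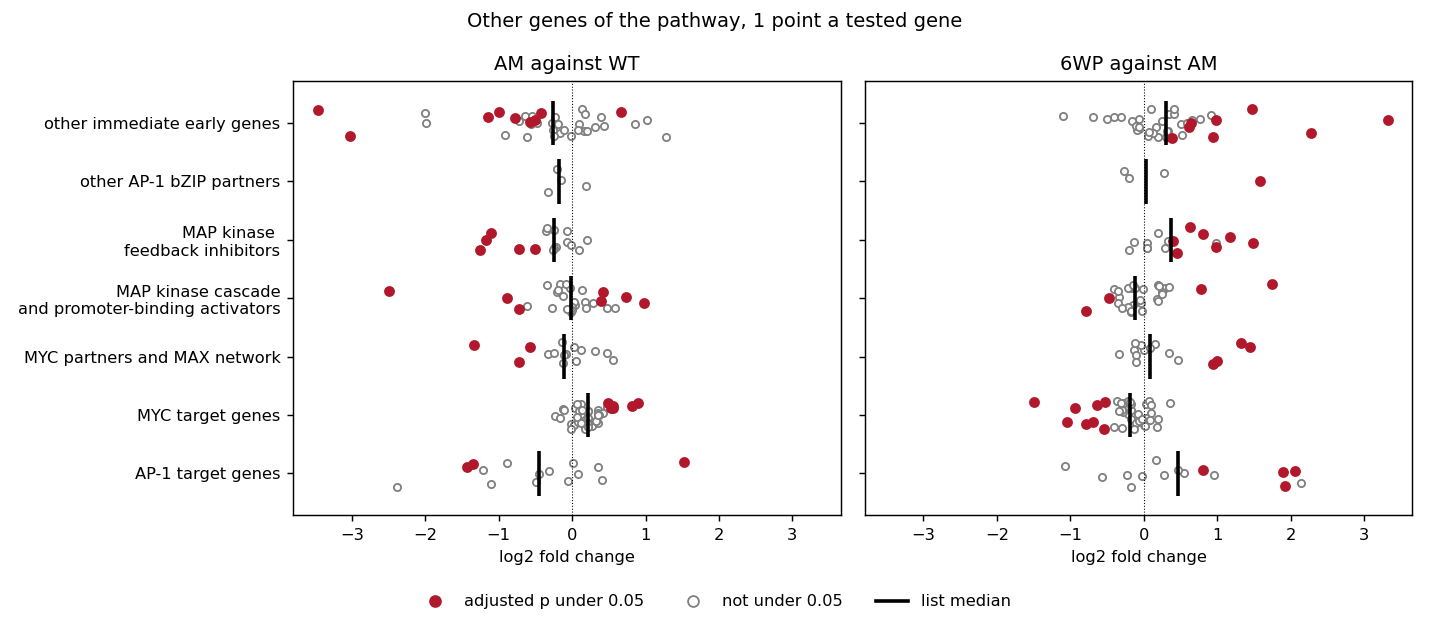
Each point is the log2 fold change of 1 tested gene of the named list, in AM against WT (left) and 6WP against AM (right), filled red where the adjusted p was under 0.05, and black bars give the list medians. Other immediate early genes and MAP kinase feedback inhibitors have medians left of 0 in AM against WT and right of 0 in 6WP against AM, and MYC target genes have the reverse.

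Across the 6 libraries, the genes whose log2 CPM ran most nearly parallel to FOS, among 9908 with a mean of at least 3 log2 CPM, were SNX1, a sorting nexin (Pearson r = 0.992), the luminal keratin KRT8 (r = 0.977) and the ubiquitin ligase gene ZNRF1 (r = 0.975). Their range was far narrower than that of FOS: SNX1 lay between 85 and 106 CPM and KRT8 between 140 and 274 CPM. The genes nearest to MYC were YPEL3 (r = 0.993), the adhesion receptor gene CD97 (r = 0.992) and ARHGEF11 (r = 0.990), with YPEL3 between 3.75 and 13.5 CPM. Exons of KRT8, ZNRF1, YPEL3 and CD97 overlap those of another annotated gene on the opposite strand, which for KRT8 is KRT18. A correlation above 0.95 was reached by 18 genes with FOS and by 155 with MYC. The points are 6 libraries of 3 groups, so these values describe the order of the libraries and were not tested.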

How the data were processed

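RNA from 6 samples of 22Rv1 cells (WT, AM and 6WP, 2 each) was sequenced as 100 bp single end reads from stranded libraries. The authors deposited whole-number read counts per gene symbol, not normalized, from alignments to hg38. The submitters' processing notes name STAR 2.5.3a, featureCounts 1.5.3 from Subread, StringTie 1.3.3, edgeR 3.22.3 and R 3.5.0. The annotation and the strand setting of the counting were not given in the sources used here. 0 columns were left out.

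Genes were kept by filterByExpr, TMM factors were computed, and all 6 libraries entered 1 quasi-likelihood fit in edgeR 4.0.16 under R 4.3.3 (common dispersion 0.0173). All tests were two-sided, with Benjamini-Hochberg adjustment over 14672 genes and a threshold of 0.05. With 2 libraries a group an exact permutation test has a smallest p of 0.333, and none was run. Alternatives were DESeq2 1.42.0, its size factors, library size only, other filters (no filter beyond 1 count in total, or at least 10 counts in every library), only the groups compared, the replicate number as a block, and each library left out. On simulated counts for AM against WT over 14474 genes, 187 of 200 genes changed 2-fold were recovered (93.5%), and 14 others were called. The changed genes had a mean of at least 10 CPM, and the spread of each gene was set equal in all groups. Recovery was not computed for the 10 genes alone, so 93.5% is not their share.

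The 10 genes and the lists, compiled from general knowledge, were chosen with earlier results of these data known. All 10 genes were named, and of each list up to 2 rises and 2 falls per comparison that passed the test without overlap between groups, plus EGR2, EGR3, ATF3, FOSL1, NR4A1, DUSP6 and MAX, and the 3 genes most correlated with FOS and with MYC. Some genes that the rule names are not reported here. Lists were described by counts and medians, beside medians over all genes of -0.002 (AM against WT), 0.048 (6WP against AM) and 0.013 (6WP against WT). Gene positions and 3′ UTRs came from GENCODE v44 and promoters from RefSeq.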

Additional observations from a re-analysis of the deposited data

How the results depend on the processing

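With 2 libraries a group, the number of calls depended strongly on the fit, and the cause was not tested. In 6WP against WT 440 genes were called in all; 894 were called with no filter beyond 1 count, 1124 by DESeq2, 96 when only the 2 groups were fitted, and 0 to 3801 with a library left out. In 6WP against AM 3131 became 1309 when only the 2 groups were fitted and 115 to 6799 with a library left out. In AM against WT 2593 became 6620 when only the 2 groups were fitted and 46 to 6714 with a library left out. Of the 10 genes, 0 to 5 were called in 6WP against WT, 0 to 9 in 6WP against AM and 0 to 9 in AM against WT with a library left out, and 5 in 6WP against AM with no filter. Differences near 0 changed sign. In 6WP against WT the replicate block gave log2 fold changes of 0.04 for JUN and 0.06 for JUNB. With a library left out these ran from -0.40 to 0.49 for JUN, -0.41 to 0.51 for JUNB, -1.49 to 0.09 for EGR1, -0.24 to 0.13 for MYC and -0.19 to 0.12 for FOSL2. FOSL2 in AM against WT was -0.03 by library size only and -0.04 to 0.06 with a library left out, and in 6WP against AM -0.24 to 0.09.

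The labels link replicates of different groups only by a number. Over all tested genes their deviations correlated at 0.0395 (WT and AM), 0.0873 (WT and 6WP) and -0.0206 (AM and 6WP). These values do not show whether replicates of the same number shared handling. With the replicate block 393 genes were called in 6WP against WT, 3069 in 6WP against AM and 2485 in AM against WT, of which 343, 2846 and 2307 were also called without it. IER2 in AM against WT then missed the threshold (edgeR adjusted p = 0.0509). Scaling moved the median of all genes by at most 0.061 (log2).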
